A study of Mus musculus with 6 samples.

Results

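Of the 9 genes described here, Cybb, Cyba, Ncf1 and Ncf4 encode subunits of the phagocyte NADPH oxidase. Sod1, Sod2, Cat, Gpx1 and Gpx3 encode enzymes that remove superoxide or peroxide. The 9 genes are a named list, chosen with earlier results of these data known, out of 19938 genes that had a probe set naming that gene alone. Each had 1 such probe set on the array, and all 9 lay among the 11516 genes whose highest array reached 5.37, the median of all log2 values, which is the level filter used below. In mouse the 9 genes lie on 9 different chromosomes.

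Heme-treated cultures were compared with vehicle-treated cultures at 6, 24 and 72 h, with 1 array for each combination (6 arrays). Bone marrow cells of Spic(igfp/igfp) mice were grown for 6 days with GM-CSF (20 ng/ml), which drives marrow cells towards macrophages and dendritic cells. The heme cultures then received 80 µM heme (the dose is typed as µm in the labels and read here as µM), and the vehicle cultures received 0.15 M NaCl with 10% NH4OH. The adherent cells were harvested, floating cells having been removed. All 6 arrays, vehicle included, carry the Spic(igfp/igfp) genotype. What that allele changes, the age and sex of the mice, and whether arrays came from separate animals or cultures are not given here. Values are log2 expression after RMA (a method that summarises the probes of a gene into 1 log2 value), and differences are heme minus vehicle on that scale.

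The oxidase is the enzyme that phagocytes use to make superoxide from oxygen and NADPH. Its catalytic subunit gp91phox (Cybb) sits in the membrane with p22phox (Cyba), and the cytosolic subunits p47phox (Ncf1) and p40phox (Ncf4) join them on activation. Superoxide dismutases turn superoxide into hydrogen peroxide, and catalase and glutathione peroxidases then break the peroxide down. Heme can itself take part in peroxide chemistry, and both gp91phox and catalase carry heme as a cofactor.

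With heme, the mitochondrial superoxide dismutase Sod2 and catalase rose and the secreted glutathione peroxidase Gpx3 fell, whereas the oxidase subunits, Sod1 and Gpx1 did not pass the test. The test was limma over the 3 time points with time as a term, at a Benjamini-Hochberg adjusted p of 0.05 over all 11516 genes. Of the 9 genes 2 rose and 1 fell, against 1.13% of all genes tested that rose and 0.59% that fell (1.72% in either direction). The list was drawn up with these calls known, so its share of calls is given as a description. The same 3 genes were the ones whose heme and vehicle arrays did not overlap, which held for 11.3% of all genes tested (5.4% with every heme array above, 5.85% with every one below). Over the 9 genes the median difference was 0.35, or 0.03, 0.36 and 0.27 in order of time, beside -0.03 over all genes tested (-0.10, -0.02 and 0.03). With 1 array per group, time points stand in for replicates. A p-value then rests on how much the difference varied between times, and not on replicates within a time. That spread is pooled with the variance of all genes tested (2 residual and 7.17 prior degrees of freedom), which carries more weight than a gene's own. Fewer cells of a type cannot be told apart from less RNA per cell.

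**Figure D1:**
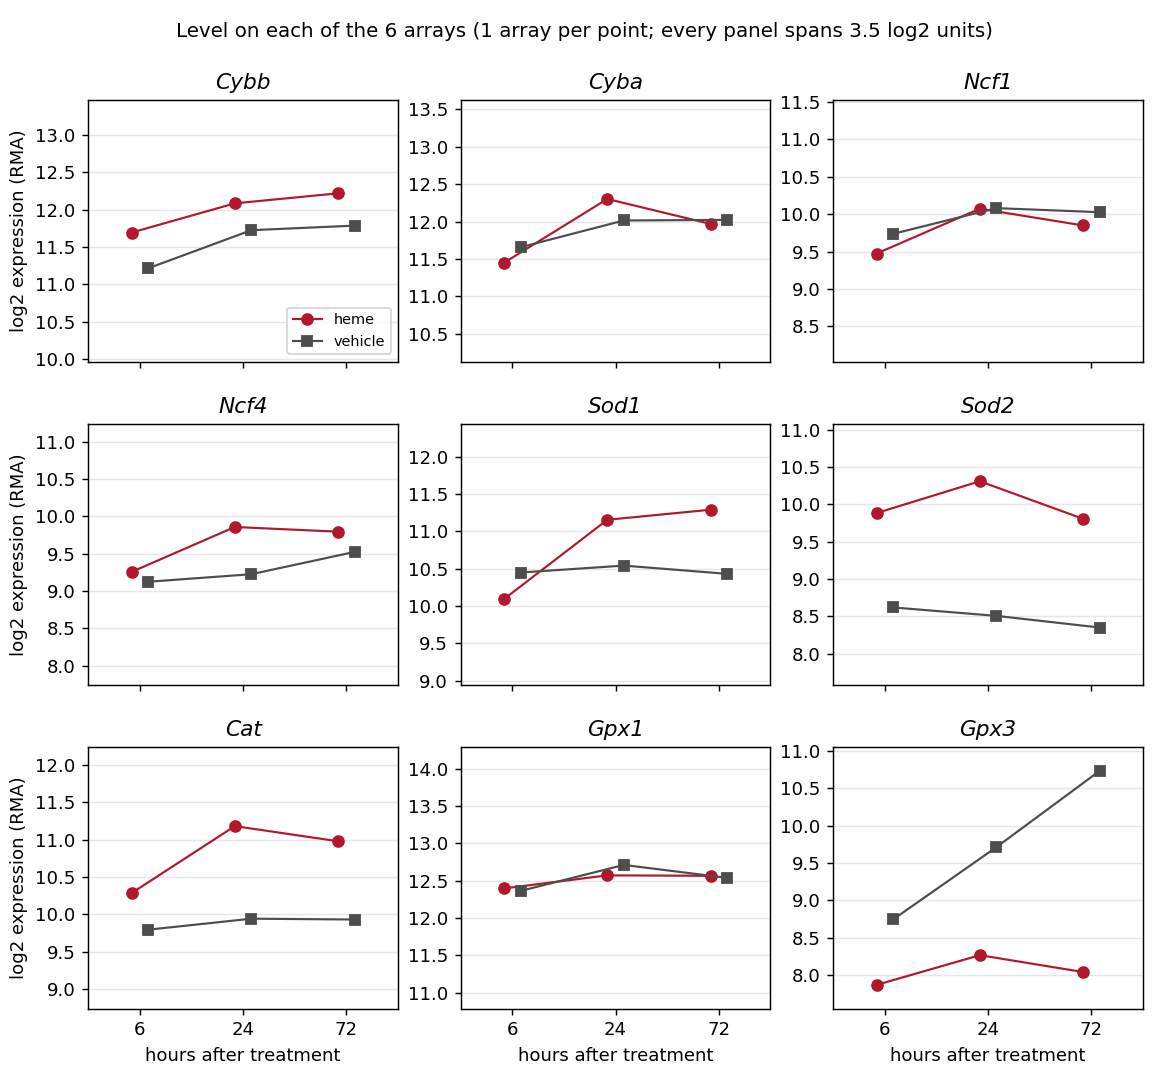
Level of each of the 9 genes (vertical axis, log2 expression after RMA, 3.5 log2 units in every panel) at 6, 24 and 72 h after treatment; each point is 1 array, red circles heme and grey squares vehicle. The heme arrays of Sod2 and Cat lie above all their vehicle arrays, those of Gpx3 lie below, and the other panels overlap.

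Among the dismutases, Sod2, the manganese enzyme of mitochondria, had levels of 9.88, 10.31 and 9.81 on the heme arrays at 6, 24 and 72 h, against 8.62, 8.51 and 8.35 on the vehicle arrays. Every heme array lay above every vehicle array, with a gap of 1.19 between the lowest heme and the highest vehicle level. The differences of 1.26, 1.80 and 1.45 correspond to 2.40-fold, 3.49-fold and 2.74-fold higher levels with heme. Sod2 rose by 1.51 ± 0.27 (SD, n = 3 time points), with a limma 95% interval from 1.17 to 1.84 and an adjusted p of 0.00189. Its mean difference was the 43rd highest of the 11516 genes, and it ranked 62nd at 6 h, 60th at 24 h and 58th at 72 h, so its place was much the same at each time. Without the 24 h pair of arrays the mean was 1.36 and the call was lost (limma, adjusted p = 0.100), with 12 genes called in all in that smaller fit.

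Sod1, the copper and zinc dismutase of the cytosol, had levels of 10.09, 11.15 and 11.29 with heme, against 10.45, 10.54 and 10.43 with vehicle. The heme array was the lower of the pair at 6 h and the higher at 24 and 72 h, so the groups overlapped. The differences were -0.35, 0.61 and 0.86, where the median of all genes was -0.10 at 6 h. Each array centred on its median gave -0.47 for Sod1 and -0.22 for all genes at that time. The mean of 0.37 ± 0.64 (SD, n = 3 time points) did not pass (limma, adjusted p = 0.653; 95% interval from -0.12 to 0.86). Without the 6 h pair the mean was 0.74 and passed (limma, adjusted p = 0.00605), in a fit whose prior of 46.9 degrees of freedom leaves little weight to the spread of a gene's own values. Among vehicle arrays Sod1 kept within a narrow band (SD 0.06), while the heme arrays spread more widely (SD 0.65). Whether the difference changes with time could not be tested, because 1 array per combination leaves no residual degrees of freedom.

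Catalase (Cat), the peroxisomal enzyme that splits hydrogen peroxide, had levels of 10.29, 11.18 and 10.98 with heme, against 9.80, 9.94 and 9.93 with vehicle. All heme arrays lay above all vehicle arrays, by at least 0.34. The differences were 0.49, 1.24 and 1.05, or 1.40-fold, 2.36-fold and 2.07-fold, and the 6 h difference was the smallest of the 3. Cat rose by 0.93 ± 0.39 (SD, n = 3 time points; limma, adjusted p = 0.0289; 95% interval from 0.55 to 1.30). Its vehicle levels varied little (SD 0.08). It no longer passed without the 24 h pair (mean 0.77; limma, adjusted p = 0.471), without the 72 h pair (mean 0.86; limma, adjusted p = 0.0825) or in a fit with no time term (adjusted p = 0.348).

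The 2 glutathione peroxidases, both selenoproteins, parted. Gpx3, the form secreted into plasma and tissue fluid, had levels of 7.87, 8.27 and 8.04 with heme, against 8.74, 9.71 and 10.73 with vehicle. The heme arrays stayed near 8 at each time, whereas each later vehicle array was higher than the one before, and all vehicle arrays lay above all heme arrays. The differences of -0.88, -1.45 and -2.69 correspond to levels lower by 1.83-fold, 2.72-fold and 6.46-fold with heme. At 72 h Gpx3 had the 2nd lowest difference of all genes tested, at 24 h the 20th lowest and at 6 h the 169th lowest. Gpx3 fell by 1.67 ± 0.93 (SD, n = 3 time points; limma, adjusted p = 0.0222; 95% interval from -2.31 to -1.03), the 4th lowest mean of 11516. The call was lost without the 24 h pair (mean -1.78; limma, adjusted p = 0.291), after cyclic loess (adjusted p = 0.0538), with robust eBayes (adjusted p = 0.122) and with no time term (adjusted p = 0.401). From 6 to 72 h the level changed by 0.17 (1.13-fold) with heme and by 1.99 (3.97-fold) with vehicle, a difference in course that has no replicate and was not tested.

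Gpx1, the abundant cytosolic form, had levels of 12.40, 12.57 and 12.57 with heme, against 12.36, 12.71 and 12.54 with vehicle. The arrays spanned 0.35 in all, the narrowest range of the 9 genes, and the groups overlapped. The mean difference of -0.03 ± 0.10 (SD, n = 3 time points), which became 0.01 after cyclic loess, did not pass (limma, adjusted p = 0.974). Its 95% interval, from -0.33 to 0.27, does not reach a 2-fold change (1 on the log2 scale) in either direction.

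**Figure D2:**
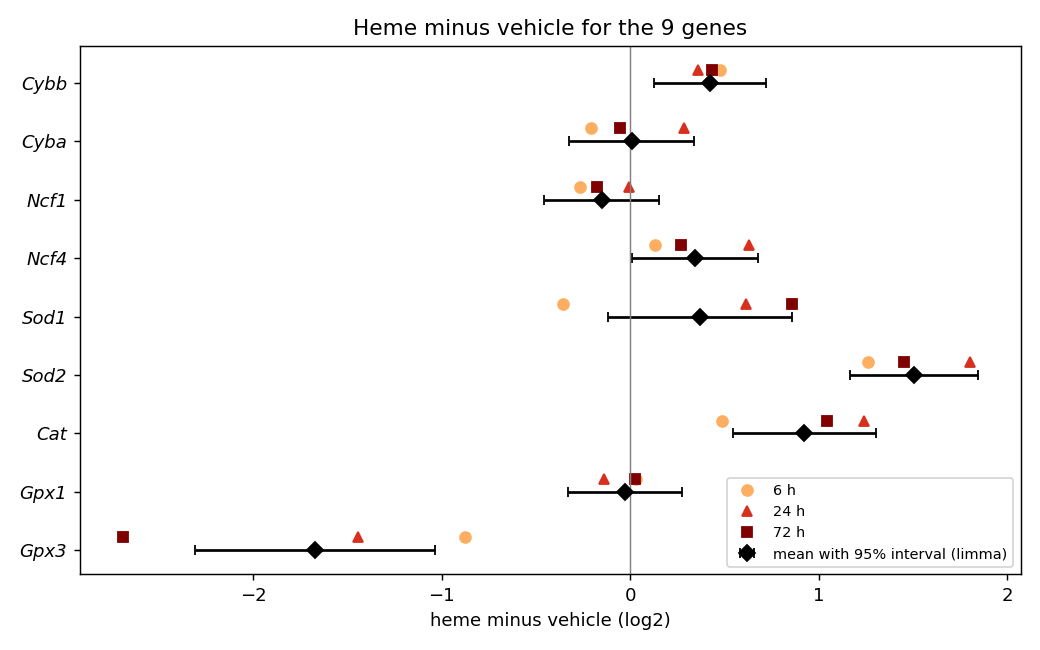
Heme minus vehicle (horizontal axis, log2) for each of the 9 genes: coloured symbols are the differences at 6, 24 and 72 h (1 pair of arrays each), and black diamonds with bars are the limma means with 95% intervals. Intervals of Sod2, Cat and Gpx3 lie farthest from 0; those of Cybb and Ncf4 also leave out 0, but neither passed after adjustment over all genes.

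Of the oxidase subunits, 0 of 4 passed in limma, and 2 of them, Cybb and Ncf4, had an unadjusted p below 0.05, as 10.6% of all genes had. Cybb, the catalytic subunit gp91phox, had levels of 11.69, 12.08 and 12.22 with heme, against 11.21, 11.72 and 11.78 with vehicle. The heme array was the higher at each time, by 0.48, 0.36 and 0.43, but the 6 h heme level lay below the later vehicle levels. Levels at 24 and 72 h were above those at 6 h under both treatments. The mean of 0.42 ± 0.06 (SD, n = 3 time points), or 1.34-fold, did not pass (limma, adjusted p = 0.216; unadjusted p = 0.0102; 95% interval from 0.13 to 0.72).

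Cyba, whose product p22phox stabilises gp91phox, had levels of 11.45, 12.30 and 11.97 with heme, against 11.66, 12.01 and 12.02 with vehicle. The groups overlapped and the differences of -0.21, 0.29 and -0.05 changed sign between times. The mean was 0.01 ± 0.25 (SD, n = 3 time points), or -0.03 with each array centred on its median, and did not pass (limma, adjusted p = 0.992; 95% interval from -0.32 to 0.34).

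Ncf1, the organising subunit p47phox, had levels of 9.47, 10.07 and 9.85 with heme, against 9.74, 10.08 and 10.03 with vehicle. The pairs differed by -0.26, -0.01 and -0.18, so the 24 h pair was nearly level (after a second quantile normalization that pair differed by 0.02). The mean of -0.15 ± 0.13 (SD, n = 3 time points) did not pass (limma, adjusted p = 0.831; 95% interval from -0.45 to 0.16).

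Ncf4, the regulatory subunit p40phox, had levels of 9.25, 9.86 and 9.79 with heme, against 9.12, 9.22 and 9.52 with vehicle. The heme array was the higher of each pair, by 0.13, 0.63 and 0.27, and the groups overlapped only through the 6 h heme array. The mean of 0.35 ± 0.26 (SD, n = 3 time points) did not pass (limma, adjusted p = 0.444; unadjusted p = 0.0440; 95% interval from 0.01 to 0.68). The signs of the subunits' differences varied: Cybb and Ncf4 were higher with heme at 3 of 3 times, Ncf1 was lower at 3 of 3 (2 of 3 after a second quantile normalization or cyclic loess), and Cyba was mixed. A common direction at all times was seen in 6 of the 9 genes and in 30.2% of all genes tested.

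By fold at single times, Sod2 was at least 2-fold higher with heme at 6, 24 and 72 h and Cat at 24 and 72 h, where 0.964%, 1.42% and 1.25% of all genes tested were, and Gpx3 at least 2-fold lower at 24 and 72 h, where 0.486% and 0.608% were (0.669% at 6 h, when it was not among them). None of the other 6 genes reached 2-fold at any time in either direction.

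**Figure D3:**
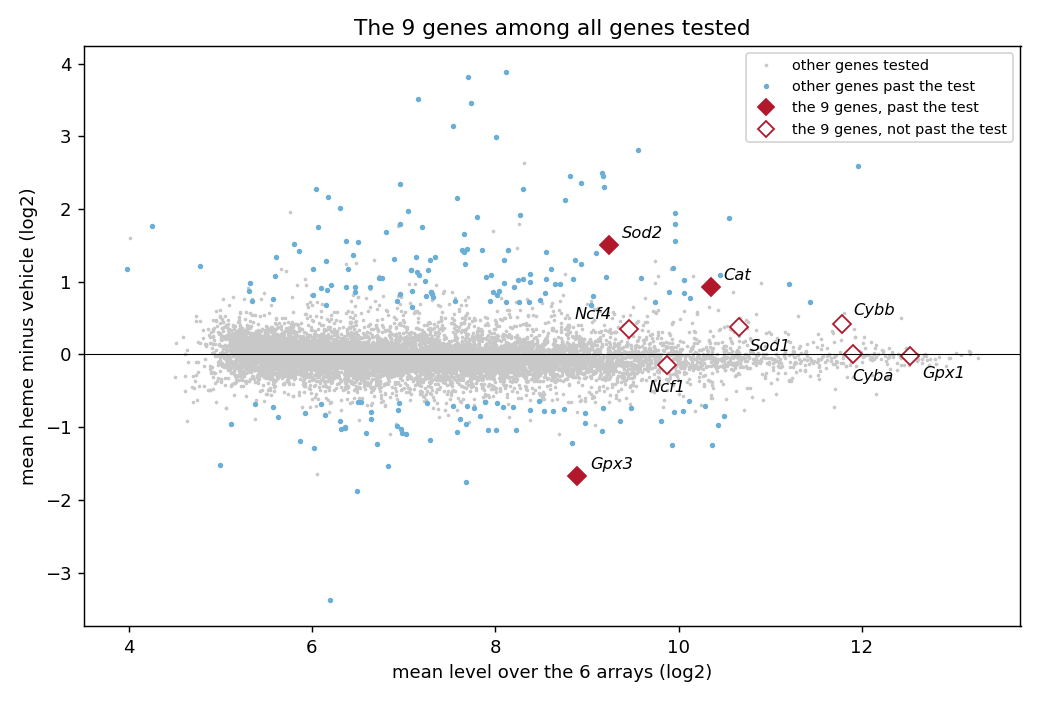
Mean heme minus vehicle over the 3 times (vertical axis, log2) against mean level over the 6 arrays (horizontal axis, log2) for the 11516 genes tested; blue dots passed the test, and diamonds are the 9 genes, filled where they passed. Sod2 (1.51) and Cat (0.93) lie above the bulk of genes and Gpx3 (-1.67) below it, while Cyba and Gpx1 lie at 0.01 and -0.03.

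Changes with time in culture were set beside the response to heme, in the same limma fit and over both treatments. Of the 9 genes 0 passed for 24 h minus 6 h (0.599% of all genes did), 0 for 72 h minus 6 h (6.59%) and 0 for 72 h minus 24 h (0.564%), with 4, 4 and 0 at an unadjusted p below 0.05, where 12.9%, 18.5% and 7.77% of all genes tested were. Under both treatments 8 of the 9 were higher at 24 h than at 6 h (32.9% of all genes tested), the exception being Sod2, and 7 were higher at 72 h than at 6 h (28.6%), the exceptions being Sod1 and Sod2. These counts describe single arrays and no gene of the 9 passed a test of time. Sod2 was lower at 72 h than at 6 h by 0.08 with heme and by 0.27 with vehicle. The largest 72 h minus 6 h values over both treatments were 1.08 for Gpx3 (limma, adjusted p = 0.116, or 0.0303 with each array centred on its median), 0.59 for Sod1 (adjusted p = 0.278) and 0.55 for Cybb (adjusted p = 0.0871, or 0.0381 with a variance trend).

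The sequence before the start of the 3 genes that passed is shown because they moved in different directions, so that their upstream regions can be compared. RefSeq windows on GRCm38.p6 were found for 8 of the 9 genes, and the 250 bases before the annotated start are given 5′ to 3′ on the strand of the gene. Capitals mark matches, on either strand, to TGACNNNGC (the core of the antioxidant response element bound by NRF2), the core bound by NF-kB proteins (GGGA and CC with any 4 bases between them), GAGGAAG (bound by the myeloid factor PU.1), GGGCGG (the GC box) and CCAAT. The last 2 were added after the sequences had been seen. The NF-kB letters fix an A after GGG and do not cover every site that NF-kB proteins bind.
Sod2 (chr17:13007589-13007838, plus strand): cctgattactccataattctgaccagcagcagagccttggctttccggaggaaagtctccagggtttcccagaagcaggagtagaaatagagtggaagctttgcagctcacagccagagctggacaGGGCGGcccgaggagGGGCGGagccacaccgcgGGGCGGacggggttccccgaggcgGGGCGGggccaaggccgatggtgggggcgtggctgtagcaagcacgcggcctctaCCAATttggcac
Cat (chr2:103485154-103485403, minus strand): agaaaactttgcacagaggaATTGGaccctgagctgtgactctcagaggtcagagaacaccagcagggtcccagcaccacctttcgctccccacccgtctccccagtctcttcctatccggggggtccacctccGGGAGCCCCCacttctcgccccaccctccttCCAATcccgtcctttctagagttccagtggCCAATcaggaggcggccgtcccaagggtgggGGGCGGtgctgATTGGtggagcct
Gpx3 (chr11:54902604-54902853, plus strand): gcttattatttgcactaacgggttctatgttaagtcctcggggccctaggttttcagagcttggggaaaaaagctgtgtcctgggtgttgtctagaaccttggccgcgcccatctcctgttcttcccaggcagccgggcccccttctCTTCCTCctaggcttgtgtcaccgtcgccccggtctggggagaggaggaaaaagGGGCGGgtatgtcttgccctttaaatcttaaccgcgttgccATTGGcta

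The Sod2 window held 4 GC boxes and 1 CCAAT and no match to the other 3 motifs as written. It does hold ggggttcccc, which has G in place of the A that the NF-kB letters require and was not counted. The Cat window held 1 NF-kB core, 116 bases before the start, with 1 GC box and 4 CCAAT, and the Gpx3 window held 1 PU.1 core on the opposite strand, 103 bases before the start, with 1 GC box and 1 CCAAT. Over the 8 windows, the antioxidant core was found in 1 (Sod1, 56 bases before the start), against 10.2% of all 32851 windows of the same length. The NF-kB core was found in 5 of 8, against 17.6%, and the PU.1 core in 1 of 8, against 10.6%. GC boxes were found in 6 of 8, against 32.7%, and CCAAT in 5 of 8, against 33.8%. In these windows 1 pair of matches to different motifs overlapped, the NF-kB core and the GC box of Ncf1. A match describes letters in this window and is not a shown binding site.

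Partners and relatives of the oxidase showed no called change. Of 20 further genes on this list 18 had a probe set, 11 passed the level filter, and 0 rose and 0 fell in limma (2 had an unadjusted p below 0.05). Their median difference was -0.01. The 3 with the largest mean difference were Prkcd, a kinase that can phosphorylate p47phox, Hvcn1, the proton channel that balances the charge of the electron flow, and Rac2, the small GTPase of the active complex. Prkcd differed by 1.06, 0.31 and 0.32 in order of time (limma, adjusted p = 0.215). Hvcn1 differed by 0.53, 0.90 and -0.12 (limma, adjusted p = 0.463), and Rac2 by -0.51, 0.02 and -0.15 (limma, adjusted p = 0.747). The other oxidases Nox1, Nox3, Nox4, Duox1 and Duox2 lay below the level filter on every array.

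Among 18 further removal and recycling genes, 16 had a probe set and 11 passed the level filter, of which 2 rose and 0 fell, with a median difference of 0.04. Both genes that rose encode reductases that spend NADPH. Glutathione reductase Gsr, which returns oxidised glutathione to the reduced form that glutathione peroxidases use, had levels of 8.44, 8.44 and 8.64 with heme, against 7.55, 7.24 and 7.44 with vehicle. The groups did not overlap, and Gsr rose by 1.09 ± 0.18 (SD, n = 3 time points; limma, adjusted p = 0.00580). Thioredoxin reductase Txnrd1, which serves the peroxiredoxins, had levels of 8.96, 8.80 and 8.48 with heme, against 7.62, 7.32 and 7.39 with vehicle. It too did not overlap and rose by 1.31 ± 0.20 (limma, adjusted p = 0.00291). Without the 24 h pair 0 genes of this list passed (limma, adjusted p = 0.186 for Gsr and 0.135 for Txnrd1).

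Of the removal genes that did not pass, 3 had the largest mean differences. The peroxiredoxin Prdx1, which reduces peroxide with thioredoxin, differed by 0.81, 0.50 and 0.21 (limma, adjusted p = 0.202), and its further probe set had a mean of 0.41. The extracellular dismutase Sod3 differed by 0.39, 0.29 and 0.66 (limma, adjusted p = 0.225). It lay below the level filter on all arrays but the 72 h heme array, so its difference has no exact size. Selenop, the secreted selenium carrier, differed by -0.48, -0.77 and -0.24 (limma, adjusted p = 0.197). Its level was higher at 72 h than at 6 h by 1.33 over both treatments and passed that test (limma, adjusted p = 0.00272). Prdx5 and Prdx6 were not analysed here.

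Besides Gpx3, which fell, and Txnrd1, which rose, the selenoprotein genes Gpx1, Gpx4, Msrb1 and Selenop, picked from these lists after their values were seen, did not pass. Their mean differences were -0.03 for Gpx1, 0.04 for Gpx4 (0.07 for its further probe set), -0.11 for Msrb1 and -0.50 for Selenop.

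**Figure D4:**
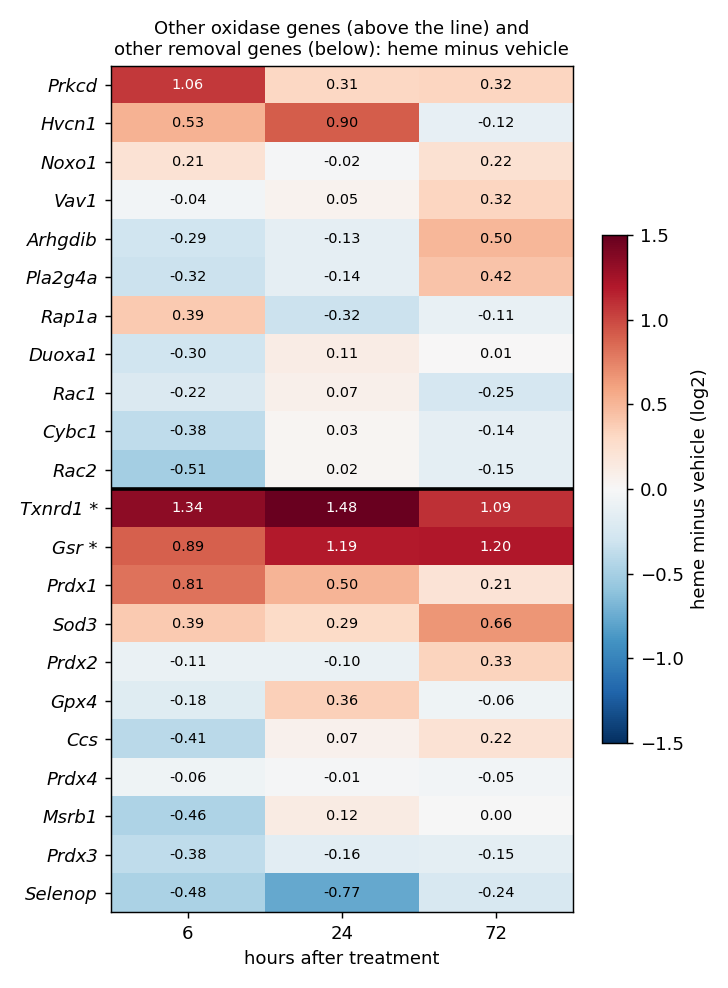
Heme minus vehicle (colour and printed value, log2) at 6, 24 and 72 h (columns) for the 22 further genes past the level filter (rows): 11 oxidase partners and relatives above the line and 11 removal genes below it; an asterisk marks the 2 genes past the test. Txnrd1 and Gsr are higher with heme at all 3 times, and Prkcd is highest at 6 h.

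The cells were checked against marker lists, since neutrophils also hold much of the oxidase. All 8 macrophage markers lay above the level filter on every array, and 0 of 8 passed for heme in limma. An unadjusted p below 0.05 was found for 3 of them, and for 10.6% of all genes tested. Leaving out the 6 h pair gave 1 that fell, Fcgr1 (mean -0.61; limma, adjusted p = 0.0360). Leaving out the 72 h pair gave another, Mrc1 (mean -0.88; limma, adjusted p = 0.0307). Over all 6 arrays their means were -0.58 and -0.57 (limma, adjusted p = 0.0999 and 0.262), and Itgam had 0.43 (adjusted p = 0.286). The median of the mean differences over the 8 was -0.06. T, B and NK cell markers (0 of 3) and the erythroid marker Klf1 did not reach the filter on any array. Of 3 stromal markers 2 passed the filter, as did 2 of 5 eosinophil and mast cell markers. From both lists 0 rose and 0 fell, while 1, the eosinophil marker Prg2, rose when the 6 h arrays were left out. Of 5 dendritic cell markers tested 1 rose, Ccr7 (1.16 ± 0.59; limma, adjusted p = 0.0279), and 0 without the 24 h pair. Over the 13 neutrophil markers the mean log2 level was 8.01, 7.70 and 6.63 with heme at 6, 24 and 72 h, against 7.87, 6.63 and 6.26 with vehicle. At those times 10, 9 and 6 of the 13 lay above the filter with heme, against 10, 8 and 7 with vehicle. Of 12 tested 1 rose, the receptor Csf3r (1.13 ± 0.25; limma, adjusted p = 0.00662), with 6 rising when the 6 h arrays were left out and 0 when the 24 h arrays were. S100a9 differed by 0.05, 2.13 and 1.05 (limma, adjusted p = 0.171), S100a8 by 0.28, 1.97 and 0.71 (adjusted p = 0.147) and Lcn2 by 0.00, 2.62 and 2.49 (adjusted p = 0.103), while Ly6g did not exceed 5.38 on any array. These were named for having the largest mean differences among those not called. Over the 12 tested the median of the mean differences was 0.46, and Mmp8 (-0.17), Cxcr2 (-0.14) and Mpo (-0.003) had means below 0. The 24 h pair, where S100a8, S100a9 and Lcn2 differed most, is also where Sod2, Cat, Cyba and Ncf4 differed most, and Gpx1 with a lower heme level (-0.14). Cybb (0.48) and Ncf1 (-0.26) differed most at 6 h, and Sod1 (0.86) and Gpx3 (-2.69) at 72 h. The part of neutrophils in any of these differences was not tested. At 6 h, when that list's mean was 8.01 with heme and 7.87 with vehicle, Sod2 differed by 1.26, Cat by 0.49, Ncf4 by 0.13 and Cyba by -0.21, for each of Sod2, Cat and Ncf4 its smallest difference.

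For the genes whose arrays spanned at least 1 log2 unit, the 3 genes with the most similar profile over the 6 arrays were found, by the root mean square difference of profiles centred on their means. This describes 6 arrays that share times and treatments. For Sod2 these were Gpr132 (0.13), Il6 (0.19) and Cbln1 (0.20). Il6 lay below the level filter on every array but the 24 h heme array, and Cbln1 on the vehicle arrays. For Cat they were Layn (0.10, above the filter only on the 24 and 72 h heme arrays), Irak3 (0.12) and Sqstm1 (0.13), and for Sod1 Akr1c13 (0.08), Auh (0.08) and Gabarapl1 (0.12). For Cybb they were Smox (0.03), Epsti1 (0.07) and Fgd3 (0.08). Gpx3 had no gene as near: Klra17 came first at 0.37, then Mamdc2 at 0.41 and Reps2 at 0.44. Klra17 had levels of 6.62, 6.90 and 6.90 with heme, against 7.08, 9.25 and 9.36 with vehicle, so that its vehicle arrays also lay above its heme arrays.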

How the data were processed

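The authors deposited log2 expression values for 35556 probe sets on 6 arrays; the series' design text names RMA quantile normalization and the ArrayStar software, and the submitters' processing notes name RMA, without versions. Array medians ran from 5.34 to 5.45 and pairwise correlations from 0.975 to 0.986, and RMA compresses differences of dim probe sets. Probe sets naming 1 gene in the platform annotation (21789; 1621 named several and 12146 were not listed) gave 19938 genes, and the probe set with the highest mean was taken where a gene had several. Symbols follow the GRCm38.p6 gene table, matched by gene identifier for 21698 probe sets.

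A linear model with terms for treatment and for time was fitted across the 6 arrays in limma 3.58.1 (R 4.3.3; moderated two-sided test), with 2 residual and 7.17 prior degrees of freedom. The step was tested on simulated data. Time in the labels pairs a heme with a vehicle array; the deviations of paired arrays from the mean of their treatment were positively correlated ( 0.562, 0.215 and 0.531 at 6, 24 and 72 h). The number of arrays limits the precision. The 9 genes and the lists were chosen with earlier results of these data known. Named were all 9 genes and, from each pathway or marker list, genes past the test and up to 3 others with the largest mean difference; for marker lists only some of these are printed. Alternatives were other normalizations, level filters, scales and variance models, the mean of probe sets, no time term and leaving out each time. Figures were drawn with matplotlib 3.10.9.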

Additional observations from a re-analysis of the deposited data

How the results depend on the processing

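Direction held under all 13 alternatives for Cybb, Ncf1, Ncf4, Sod1, Sod2, Cat and Gpx3; Cyba reversed with each array centred on its median (-0.028) and without the 24 h pair (-0.131), and Gpx1 after cyclic loess (0.0084) and without the 24 h pair (0.030). Direction could change only with the other normalizations, the offset or a pair left out. The level filters, the mean of probe sets, the variance models and the fit with no time term leave the mean difference of these genes as it was. Sod2 passed under 12 of the 13 alternatives, Cat under 10 and Gpx3 under 9. Without the time term, that is with no replicate block for the paired arrays, 18 genes passed in place of 198, and neither Cat (0.93; limma, adjusted p = 0.348) nor Gpx3 (-1.67; adjusted p = 0.401) did. Gpx3 also missed the threshold after cyclic loess (-1.63) and with robust eBayes (-1.67). Leaving out a pair of arrays gave 12 (24 h) to 521 (6 h) genes, and means of 1.36 to 1.63 for Sod2, 0.77 to 1.14 for Cat, -2.07 to -1.16 for Gpx3, 0.13 to 0.74 for Sod1, -0.13 to 0.12 for Cyba and -0.056 to 0.030 for Gpx1. These fits have 1 residual degree of freedom. Of the genes past the test 65.7% were higher with heme, against 76.2% after cyclic loess, 58.1% with each array centred on its median, 94.4% without the time term and 91.7% without the 24 h pair. At 1.5-fold 1180, 752 and 793 genes differed at 6, 24 and 72 h, at 4-fold 24, 49 and 34, and with an offset of 16 on the linear scale 122 at 6 h, in place of 188, 220 and 214 at 2-fold. The causes of these changes were not tested. Signal near the level filter limits differences of dim genes such as Sod3.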
